A study of Danio rerio with 6 samples.

Results

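Adult complement-expressing stromal cells of the zebrafish pituitary were taken as the wells of the 7-month and 5-month plates that held at least 400 unique molecular identifiers (UMIs, each counting 1 captured transcript) and at least 1 UMI of 4 or more of 10 genes, clu, c6, krt94, c4, ifitm1, mfap5, fgl2b, myoc, ccl25b and mgp. The rule found 71 wells among 740 kept adult wells (9.59%), 29 and 3 of them from the plates of 7-month fish and 18 and 21 from those of 5-month fish, and the remaining 669 kept adult wells were their comparison. The measured counts of these genes chose the wells. Every comparison of levels between the stromal wells and the other wells is therefore a description and carries no test. Only the difference between their changes from 5 to 7 months was tested, in wells chosen the same way.

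The cells came from the AB strain carrying the transgene Tg(pomca:EGFP), in which a pomca promoter drives a green fluorescent protein, and the labels call them enriched for the neurohypophysis, the posterior lobe. The 7-month and the 5-month groups were each 1 pool of 5 pituitaries from males that had received 10 µl of the fluorescent dipeptide β-Ala-Lys-Nε-AMCA (4.6 mM) 3 hours before dissection, and all groups shared the transgene and the dipeptide. Juveniles of 37 days post fertilization (dpf) received 5 µl. Dissociated cells were stained with propidium iodide and sorted into 384-well plates for MARS-seq, a plate method that tags the 3′ end of transcripts, and 2 plates were made from each of the 3 pools. The 2 plates of an age share their fish, so the spread between them is the spread between plates of 1 pool and may be technical.

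Complement is a cascade of plasma proteins that marks and lyses targets. C4 forms part of the convertase that cleaves C3, C6 belongs to the terminal membrane attack complex, and clusterin, the product of clu, restrains that complex and chaperones unfolded protein. Stromal fibroblasts lay down collagens and microfibrils around vessels and lobes, and in the posterior pituitary they share the tissue with pituicytes, the local glia, and with the axon endings that release neurohormones.

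The 4 adult plates held between 105793 and 465093 UMIs, and the sequencing batch listed for them was the same. The stromal wells held 86615 UMIs in all and a median of 1140 per well (range 457 to 3089), against a median of 937 in the other kept adult wells. No well identifier was shared between plates. The second 7-month plate stood apart, since its 3 stromal wells held 2275 UMIs together, so that 1 UMI there was worth 439.6 CPM (a gene's UMIs scaled to a common total of the summed wells) and a count of 0 allowed a level of up to 1319 CPM. On the other 3 adult plates the same limit lay between 92.5 and 116 CPM. These limits are 3 UMIs of the summed total and cover counting error only.

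The labelled type was first set against its markers. Of the 71 wells, 61 had a UMI of c4 or c6 and 10 had neither. A type I collagen UMI was present in 70 wells, and 55 had at least 5 such UMIs. Retinol-binding protein rbp4 was also present in 70 wells. The defining genes of several other types were scarce: 14 endothelial genes held 2 UMIs in all stromal wells, with cdh5 at 0, 9 neuron genes held 1 UMI, and 8 lymphocyte and 7 erythrocyte genes held 0. In the 669 other wells the endothelial genes held 83 UMIs, 8 of them of cdh5, and the neuron genes 379. The lymphocyte and erythrocyte genes held only 1 and 3 UMIs there. Their 0s in the stromal wells, and that of cdh5, therefore do not set the stromal wells apart. The summed level of 16 pituicyte genes ranged over the plates between 0 and 1157 CPM in the stromal wells, against 5843 to 12739 CPM in the others, and that of 20 macrophage and microglia genes between 0 and 1078 CPM, against 2510.2 to 6501 CPM. In 1 stromal well 3 or more macrophage genes were counted. Other lists were not scarce. On 7-month plates 1 and 2 and 5-month plates 1 and 2, the 8 keratinocyte genes summed to 2281, 439.6, 2738 and 2811 CPM in the stromal wells, against 2338, 1908, 1113 and 1002 CPM in the others. Within that list the simple epithelial keratin krt8 was seen in 49 of 71 stromal wells (69.0%) and 311 of 669 other wells (46.5%) and krt4 in 21 of 71 stromal wells (29.6%) and 74 of 669 other wells (11.1%), while the epithelial adhesion gene epcam had 0 UMIs in the stromal wells and 158 in the others, and krt5 had 0 UMIs in the stromal wells and 10 in the others. In the same order of plates the 10 mural genes summed to 2959, 1758, 3046 and 1810.0 CPM in the stromal wells, against 1041, 1054, 639 and 577 CPM in the others, and rgs5b was higher on each plate. The 12 folliculostellate genes summed to 2836, 879, 3008 and 2118 CPM in the stromal wells, against 2682, 2284, 1185 and 1278 CPM in the others. Of these 12, anxa1a had 151 stromal UMIs and was the 1 gene higher on each plate. In the same list 8 genes had 0 stromal UMIs, and fxyd1, with 11 stromal UMIs against 254 in the others, was lower on each plate. The part of these lists in the results was not tested. The wells thus carried collagen transcripts beside the complement genes, and 10 of them lacked both c4 and c6.

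The wells that met the gene rule made up 14.3% of kept wells on 7-month plate 1 (29 of 203, 95% Clopper-Pearson interval 9.78 to 19.9) and 2.83% on 7-month plate 2 (3 of 106, 0.588 to 8.05). At 5 months they made up 7.00% (18 of 257, 4.2 to 10.8) and 12.1% (21 of 174, 7.63 to 17.9). The means were 8.56% ± 8.10 (SD, n = 2) at 7 months and 9.54% ± 3.58 (SD, n = 2) at 5 months, and the plates of the ages overlapped. An exact two-sided permutation test of 2 plates against 2 cannot go below 0.333 and was not run. At 37 dpf 1 of 311 and 4 of 339 wells met the same gene rule (0.322% and 1.18%), with upper limits of 1.78% and 2.99%. The interval of 7-month plate 2 overlapped those of both juvenile plates, and the intervals of the other 3 adult plates lay above them. Age and sequencing batch cannot be told apart between 37 dpf and the adults.

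**Figure D1:**
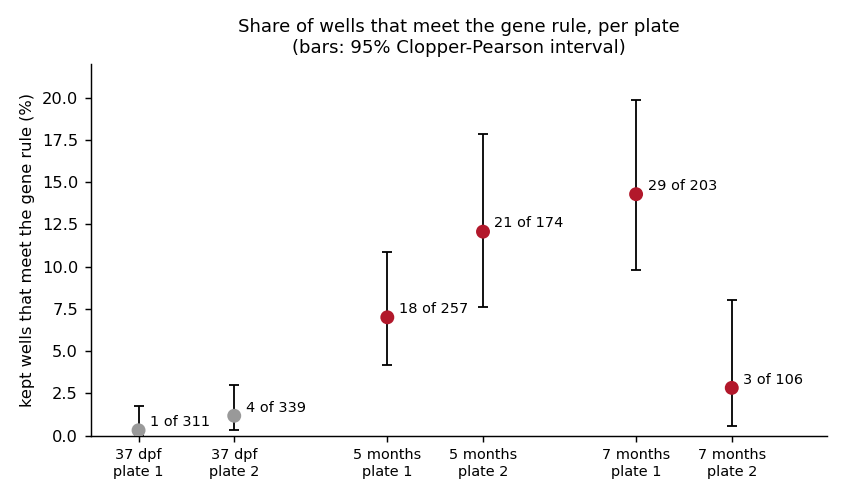
Share of kept wells that met the gene rule on each of the 6 plates, in percent, with 95% Clopper-Pearson intervals and the number of wells. The adult plates lie between 2.83% and 14.3%, with the 7-month plates at both ends, and the 37 dpf plates lie at 0.322% and 1.18%.

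Near the threshold the wells formed no gap. There were 23 wells with exactly 4 rule genes and 39 with 3, and 406 adult wells had none. The wells with 4 had 18246 CPM of rbp4 and 12242 CPM of type I collagen, and those with 3 had 8853 and 9419 CPM. Of the wells with 4, 22 had an rbp4 UMI, and of those with 3, 37 did. The glycoprotein hormone subunit cga stood at 546 CPM in the wells with 4 rule genes and at 10762 CPM in the wells with 3.

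The complement genes themselves came first among the rule genes by role. The terminal component c6 had 2158 and 3077 CPM in the stromal wells of the 7-month plates and 1118 and 1155 CPM in those of the 5-month plates, against 128, 50.2, 24.2 and 4.25 CPM in the other wells of the same plates. It was detected in 45 of 71 stromal wells (63.4%) and 28 of 669 other wells (4.19%), and in 36.6% and 2.09% after each well was thinned to 400 UMIs. The convertase component c4 had 1973 and 1319 CPM in the stromal wells of the 7-month plates and 848 and 924 CPM in those of the 5-month plates, against 69.8, 12.6, 12.1 and 17.0 CPM in the other wells of the same plates. It was detected in 45 of 71 stromal wells (63.4%) and 20 of 669 other wells (2.99%), or 33.8% and 1.49% when thinned. For both genes each stromal value lay above each value of the other wells, which is what the rule selects. Clusterin had 5579.7 and 3516 CPM in the stromal wells of the 7-month plates and 578 and 2465 CPM in those of the 5-month plates, against 1158, 515, 75.0 and 72.2 CPM in the other wells of the same plates, and was detected in 44 of 71 stromal wells (62%) and 86 of 669 other wells (12.9%), or 40.8% and 8.22% when thinned. The stromal and other wells overlapped for clu across plates but not within any plate.

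Of the remaining rule genes, krt94 is a keratin and the others have secreted, matrix or interferon-related roles. The chemokine ccl25b had 11992 and 5714 CPM in the stromal wells of the 7-month plates and 17313 and 19178 CPM in those of the 5-month plates, against 919, 552, 759.7 and 391 CPM in the other wells of the same plates. Its detection in 55 of 71 stromal wells (77.5%) and 152 of 669 other wells (22.7%) sat above a wide background, since 35.1% of the 57 other wells with 3 or more macrophage genes (median 3169 UMIs) also had a ccl25b UMI. In those macrophage-gene wells, which should lack the stromal genes, c6 was seen in 3.51%, c4 in 7.02%, clu in 8.77%, krt94, fgl2b and mgp in 1.75% each, and ifitm1, mfap5 and myoc in 0 of 57, which allows a share of up to 5.26% by counting error. The keratin krt94, the interferon-induced membrane gene ifitm1, the microfibril gene mfap5 and the fibrinogen-like gene fgl2b averaged 1790.0 ± 699.5, 2259 ± 1135, 821 ± 297 and 819 ± 60.1 CPM in the stromal wells (SD, n = 4 plates), against 81.2 ± 67.1, 87.9 ± 70.7, 39.3 ± 44.0 and 11.4 ± 19.7 CPM in the others. Matrix Gla protein, mgp, which restrains calcification, and the glycoprotein gene myoc had 0 UMIs in the 3 stromal wells of 7-month plate 2. On the other plates mgp had 247 CPM at 7 months, against 1774 and 501 CPM at 5 months in the stromal wells, and 1 well held 31.3% of its UMIs. For myoc the level was 709 CPM at 7 months, against 1735 and 308 CPM at 5 months, with 27.6% in 1 well.

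Each rule gene was also read in wells that the other 9 had chosen, which takes the gene described out of the choice. The 10 genes entered the rule with earlier results of these data known, so the shares are a description and not independent support. Wells were chosen on their full counts, also for the thinned shares. Wells with 4 or more of the other 9 held c4 in 33 of 59 cases (55.9%), against 32 of 681 of the rest (4.70%), and after thinning the shares were 28.8% and 2.5%. The complement gene c6 was seen in 29 of 55 such wells (52.7%) and in 6.42% of the rest, and clu in 31 of 58 (53.4%) and 14.5%. For ccl25b the shares were 71.9% and 24.3%. The lowest was mgp, with 12 of 69 wells (17.4%) and 1.34% of the rest. Of the 10 genes, 8 were more frequent in the chosen wells on all 4 plates, and mgp and myoc on 3 plates.

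Outside the rule, genes were described by the log2 ratio of CPM plus a pseudocount of 50 in the stromal over the other wells, computed on each plate, which understates the ratio of low genes. Of 440 genes with at least 20 UMIs in the stromal wells, 17 were at least 4-fold higher on each of the 4 plates (3.86%), 8 of them rule genes. The other 9 were rbp4, cxcl12a, plpp1a, krt15, pcolcea, frzb, htra1b, CR381599.1 and itga5. The retinol carrier rbp4 had 21487 and 25055 CPM in the stromal wells of the 7-month plates and 15154 and 16405 CPM in those of the 5-month plates, against 2693, 1356, 864 and 509.5 CPM in the other wells of the same plates, a mean log2 ratio of 4.02 (range 2.97 to 4.88, n = 4 plates). It was seen in 70 of 71 stromal wells (98.6%) and 183 of 669 other wells (27.4%), or 91.5% and 18.4% when thinned. Every plate showed rbp4 high in the stromal wells and the groups did not overlap. In the macrophage-gene wells rbp4 was seen in 22.8% and cxcl12a in 10.5%.

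The chemokine cxcl12a, a ligand of Cxcr4 receptors, had 2528 and 5275 CPM in the stromal wells of the 7-month plates and 10295 and 10013 CPM in those of the 5-month plates, against 483, 715, 373 and 115 CPM in the other wells of the same plates, with a mean log2 ratio of 3.90 (range 2.27 to 5.93, n = 4 plates). It was seen in 43 of 71 stromal wells (60.6%) and 73 of 669 other wells (10.9%), or 49.3% and 7.03% when thinned, and 1 well held 14% of its stromal UMIs. The stromal levels of cxcl12a were lowest at 7 months, and all 4 stayed above each level of the other wells. The keratin krt15 averaged 1815 ± 261 CPM in the stromal wells and 156 ± 109 CPM in the others (SD, n = 4 plates), with a mean log2 ratio of 3.30 (range 2.62 to 4.00, n = 4 plates), and was seen in 48 of 71 stromal wells (67.6%) and 67 of 669 other wells (10.0%).

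Among the other 6 genes were matrix and signalling genes at lower counts. The lipid phosphatase plpp1a averaged 1219.7 ± 446 CPM in the stromal wells and 64 ± 51.1 CPM in the others, the procollagen C-proteinase enhancer pcolcea 989 ± 814 and 42.6 ± 8.42 CPM, and the secreted Wnt antagonist frzb 1112 ± 1051 and 56.3 ± 44.5 CPM (SD, n = 4 plates). The secreted protease htra1b averaged 699 ± 290.1 CPM in the stromal wells and 40.1 ± 35.5 CPM in the others, and the fibronectin receptor subunit itga5 411 ± 319.7 and 9.33 ± 7.85 CPM, the first of them from 23 UMIs in 15 wells. CR381599.1, which the tables name only by this identifier, averaged 1089 ± 942 and 69.5 ± 81.9 CPM. The SDs of pcolcea, frzb and CR381599.1 approach their means, and each had 5 or 6 UMIs in the 3 wells of 7-month plate 2. On that plate plpp1a rested on 3 stromal UMIs, itga5 on 2 and htra1b on 1. Without that plate 35 of 427 genes were at least 4-fold higher (8.20%), all 17 among them, and these included, named after their values were seen, sfrp1b with 98 stromal UMIs, col6a2 with 180, col6a1 with 108, the fibronectin gene fn1b with 57, col5a1 with 113 and the fibroblast receptor gene pdgfra with 27, each with between 0 and 2 UMIs in the 3 wells.

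**Figure D2:**
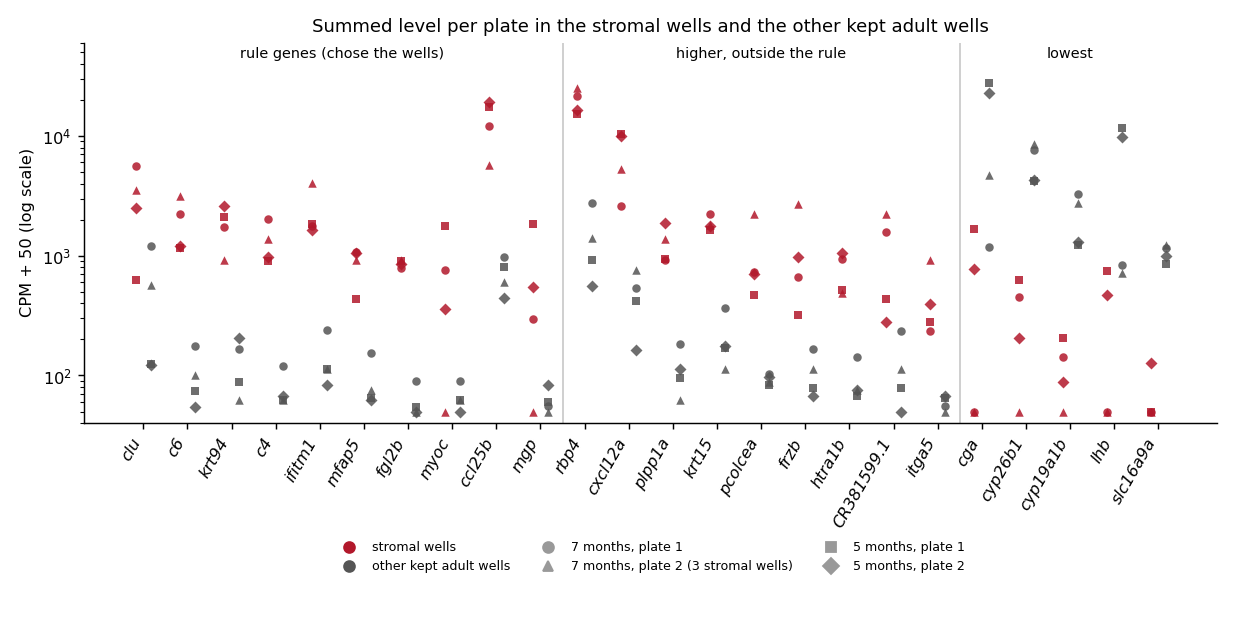
Summed level per plate, as CPM plus 50 on a log scale, of the 10 rule genes, the 9 genes outside the rule that were at least 4-fold higher on each plate and the 5 genes with the lowest ratios, in the stromal wells (red) and the other kept adult wells (grey). The red points of rbp4 lie between 15154 and 25055 CPM and the grey ones between 510 and 2693 CPM before the 50 is added, while cga, cyp26b1, cyp19a1b, lhb and slc16a9a show the opposite order.

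The collagen list, with fibrillar collagens, type VI and other collagens and related genes, was the matrix list with the most members counted. Of 20 genes in the list, all were in the tables and 11 had at least 20 stromal UMIs, a minimum that favours genes high in these wells. Among the 11, 7 were higher on each plate, with a median log2 ratio of 2.07. For all genes with as many UMIs the median was 0.31, with 125 of 440 higher (28.4%) and 33 lower (7.5%). By the same minimum in the other wells, 15 of the 20 would count. In the list 4 genes had 0 stromal UMIs, and 1 was at least 4-fold higher on each plate, the procollagen C-proteinase enhancer pcolcea and not a collagen. Type I collagen col1a1b had 6597 and 1758 CPM in the stromal wells of the 7-month plates and 3355 and 5083 CPM in those of the 5-month plates, against 2845, 439, 523 and 217 CPM in the other wells of the same plates. Type VI collagen col6a2 had a mean log2 ratio of 2.76 (range 1.51 to 3.95, n = 4 plates), col6a3 of 2.07 (range 1.29 to 2.61, n = 4 plates) and type V collagen col5a1 of 2.21 (range 1.29 to 2.86, n = 4 plates). The collagen chaperone serpinh1b had, on 7-month plates 1 and 2 and 5-month plates 1 and 2, 0, 0, 269.9 and 38.5 CPM in the stromal wells, against 157, 126, 157 and 178 CPM in the others, with 75.0% of its 8 stromal UMIs in 1 well. Decorin, dcn, the one small leucine-rich proteoglycan of 12 in the tables with 20 stromal UMIs, had a mean log2 ratio of 2.51 (range 1.27 to 3.42, n = 4 plates) and was seen in 41 of 71 stromal wells (57.7%) and 90 of 669 other wells (13.5%).

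Basement membrane and fibroblast regulator lists were thinner. The basement membrane collagen col4a1 had 2620.3 and 879 CPM in the stromal wells of the 7-month plates and 617 and 385 CPM in those of the 5-month plates, against 326, 289, 67.7 and 80.7 CPM in the other wells of the same plates. It was 1 of 2 genes that were higher on each plate among the 5 basement membrane genes with 20 stromal UMIs. Of 21 fibroblast transcription factor and receptor genes in the tables, pdgfra alone reached 20 stromal UMIs, and twist1a and twist1b had 6 each. The growth factor-binding gene igfbp5b averaged a log2 ratio of 2.90 (range 1.56 to 4.18, n = 4 plates), and the growth factor igf2b of 3.13 (range 1.52 to 5.16, n = 4 plates) from 46 UMIs in 22 stromal wells and 33 UMIs in 25 of the other wells. The protease inhibitor gene serpinf1 had a log2 ratio of 2.13 (range 1.38 to 3.32, n = 4 plates).

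The complement cascade beyond the rule genes was sparse. Of 21 initiator and convertase genes in the tables, 14 had 0 stromal UMIs, and only 5 of these 14 had a UMI in the other wells. Both c1r and c1s had 0 UMIs in the stromal and in the other wells. In the stromal wells 3 genes of the list reached 20 UMIs. These were c4, si:dkey-8k3.2, which the RefSeq gene table lists with the older symbol c4b, and cfd, the factor D protease. The gene si:dkey-8k3.2 had, on 7-month plates 1 and 2 and 5-month plates 1 and 2, 185, 0, 463 and 77.0 CPM in the stromal wells, against 105, 25.1, 4.84 and 0 CPM in the others. It had 20 UMIs in 10 stromal wells and 22 UMIs in 13 of the others, and was higher on 3 plates, and if its sequence is close to that of c4, reads could be split between the pair. Factor D went the other way, with 308 and 0 CPM in the stromal wells of the 7-month plates and 733 and 347 CPM in those of the 5-month plates, against 3135, 4807, 1265 and 1771 CPM in the other wells of the same plates. Of 7 terminal genes in the tables c7a had 14 UMIs in 11 stromal wells and 4 UMIs in 4 of the others, and c9 had 0 in both. The regulators cfh and serping1 had 0 UMIs in the stromal wells, and cfh had 4 in the others. Of 13 regulator and receptor genes in the tables, 10 had 0 stromal UMIs, and only 3 of these 10 had a UMI in the other wells.

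Genes of pituicytes and of hormone cells led the lower genes. Of 3850 genes with at least 20 UMIs in the other wells, 15 were at least 4-fold lower in the stromal wells on each plate (0.39%). On 7-month plate 2, 14 of the 15 had 0 stromal UMIs, and for 11 of these the other wells lay below the 1319 CPM that a 0 allows there, so the ratio on that plate rests on the pseudocount. Without that plate 18 of 3479 genes were at least 4-fold lower (0.517%), the 15 among them. The pituicyte gene cyp26b1, whose product degrades retinoic acid, had 401 and 0 CPM in the stromal wells of the 7-month plates and 578 and 154 CPM in those of the 5-month plates, against 7527, 8497, 4120.2 and 4195 CPM in the other wells of the same plates. Brain aromatase, cyp19a1b, averaged 71.3 ± 67.0 CPM in the stromal wells and 2096 ± 1043 CPM in the others (SD, n = 4 plates), and the monocarboxylate transporter family gene slc16a9a 19.3 ± 38.5 CPM in the stromal wells and 1011 ± 163 CPM in the others. The gene slc16a9a was in neither of those lists but, like rbp4, in that of 16 meningeal and perivascular fibroblast genes. In that list 5 genes had 0 stromal UMIs, 4 of which had a UMI in the others. On each plate 1 gene of it was at least 4-fold higher (17 of 440 over all genes) and 1 at least 4-fold lower. The gonadotropin subunits cga and lhb had 0 UMIs in the stromal wells at 7 months. At 5 months cga stood there at 1619.5 and 732 CPM, against 27537 and 22564 CPM in the other wells, and lhb at 694 and 424 CPM, against 11669 and 9753 CPM. A cga UMI was present in 31.0% of stromal wells and in 75.4% of the 57 macrophage-gene wells, which should lack it. Those wells were deeper, with a median of 3169 UMIs against 1140, and 33 and 12 of them came from the 5-month plates. The source of the cga UMIs in the stromal wells was not tested.

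The stromal wells were then set against the 62 other adult wells with at least 5 type I collagen UMIs, which the rule left out (30 and 6 at 7 months, 16 and 10 at 5 months, median 897 UMIs). Of the 440 genes, 2 were at least 4-fold higher in the stromal wells on each plate (0.455%), both of them rule genes, c4 and fgl2b, and 0 outside the rule. On 7-month plate 2 these rested on 3 stromal UMIs of c4 and 2 of fgl2b. In the collagen wells fgl2b had 0 CPM on that plate and on both 5-month plates, and c4 had 0 CPM on 5-month plate 1. The collagen wells held 64798 UMIs in all, so low genes are poorly measured there. None of 313 genes was 4-fold lower on each plate (0%). The mean log2 ratio of rbp4 was 1.16 (range 0.59 to 1.68) and 61 of the 62 collagen wells had it. For cxcl12a the mean was 1.49 (range 0.69 to 3.11), for krt15 1.87 (range 1.36 to 2.61) and for htra1b 2.62 (range 1.33 to 4.39), with each plate above 0. The collagen wells had 0 CPM of htra1b on 7-month plate 2, with 1 stromal UMI, and on 5-month plate 2, so those ratios rest on the pseudocount. For col1a1a, which together with col1a1b and col1a2 chose the collagen wells, the mean was -1.31 (range -1.86 to -0.30), a value that the choice of those wells sets in part. Decorin, at 0.43 (range -0.60 to 1.69), and col6a2, at 0.25 (range -0.93 to 1.40), had plates on both sides of 0. Clusterin had a mean of 0.76 (range 0.08 to 2.29) and was seen in 40.3% of the collagen wells.

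**Figure D3:**
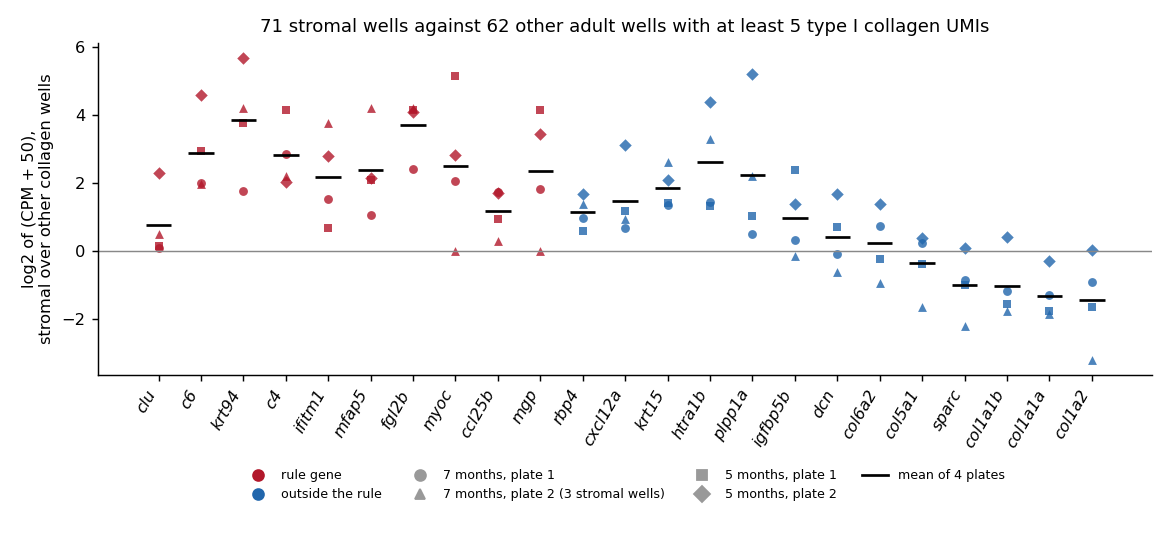
Log2 ratio of CPM plus 50 in the 71 stromal wells over the 62 other adult wells with at least 5 type I collagen UMIs, for each plate (symbols) and as the mean of 4 plates (bars). Rule genes (red) chose the stromal wells and lie mostly above 0, rbp4, cxcl12a, krt15 and htra1b (blue) lie above 0 on each plate, and the type I collagens lie below 0 on average.

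Within the 71 wells the rule genes did not come as 1 block. Their number per well ran from 4 to 10 with a median of 5, and c4 and c6 were seen together in 29 wells and each in 45. By the rule gene with the most UMIs in a well, ccl25b led 36 wells, clu 14, krt94 7 and c6 3, and 11 wells had another leading gene or a tie. At 7 months 11 and 2 wells per plate were ccl25b-led, against 11 and 12 at 5 months. At 7 months 8 and 1 wells were clu-led, against 0 and 5 at 5 months. Since these groups were made from the counts, the differences between them are given without a test.

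Plate and position moved with the groups. On 7-month plate 1 all 8 clu-led wells lay in odd rows and odd columns, against 0 of 11 ccl25b-led and 3 of 10 other wells, and the part of position in the values below was not tested. In the ccl25b-led, the clu-led and the other wells, cxcl12a was seen in 32 of 36, 4 of 14 and 7 of 21 wells. Its level on 7-month plate 1 was 6677 CPM in the ccl25b-led, 0 CPM in the clu-led and 181 CPM in the other wells. On 5-month plate 1 it was 11232 CPM in the ccl25b-led and 8865 CPM in the other wells, and on 5-month plate 2 14952 CPM in the ccl25b-led and 6885 CPM in the clu-led wells. The ccl25b-led wells had the highest of these levels on each of the 3 plates. In the other wells of 5-month plate 1, 1 well held 87 cxcl12a UMIs and none of the rest more than 2. In the clu-led wells of 5-month plate 2, 1 well held 54 cxcl12a UMIs and none of the rest more than 3. The regulator of G protein signalling rgs5b, known from pericytes in mammals, was seen in 24 of 36, 4 of 14 and 5 of 21 wells, pcolcea in 18 of 36, 2 of 14 and 5 of 21 wells and igf2b in 16 of 36, 5 of 14 and 1 of 21 wells. Detection of krt4 was 7 of 36, 0 of 14 and 14 of 21 wells, that of krt15 20 of 36, 11 of 14 and 17 of 21 wells, that of krt8 24 of 36, 9 of 14 and 16 of 21 wells, that of anxa1a 21 of 36, 8 of 14 and 18 of 21 wells and that of htra1b 12 of 36, 3 of 14 and 14 of 21 wells. Over all 71 wells, 12 of the 14 with an mgp UMI also had krt94. Collagens were seen throughout, col1a1a in 28 of 36, 12 of 14 and 19 of 21 wells and col6a2 in 24 of 36, 13 of 14 and 16 of 21 wells. The median depth was 1067.5 UMIs in the ccl25b-led and 1248 UMIs in the clu-led wells.

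**Figure D4:**
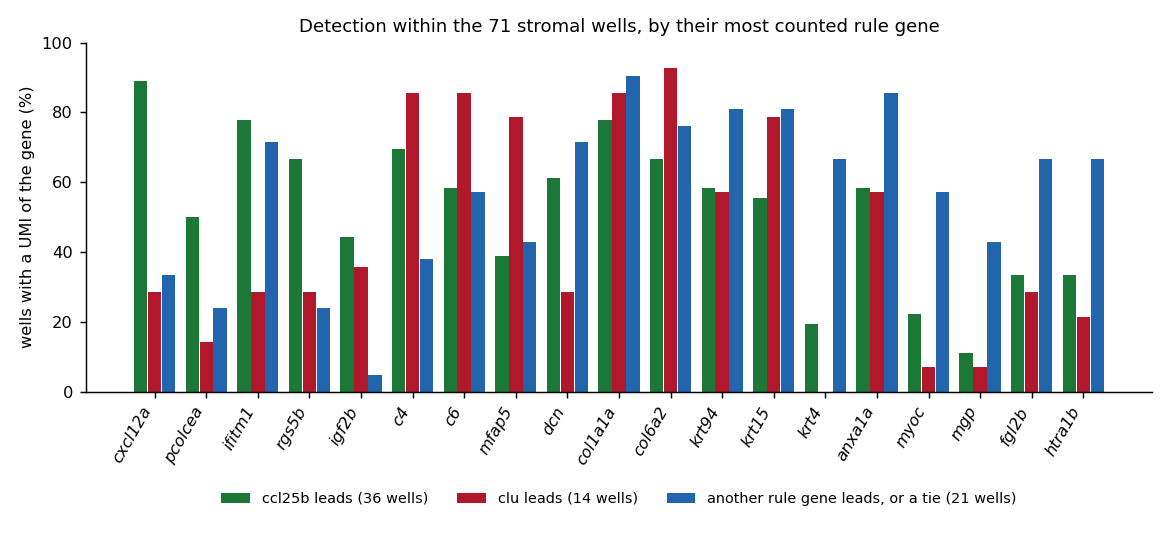
Percent of wells with a UMI of each gene in the ccl25b-led (36 wells), clu-led (14 wells) and remaining (21 wells) stromal wells. The bar of cxcl12a is highest in the first group, those of c4, c6 and mfap5 are highest in the second, and those of krt4, anxa1a, myoc, mgp, fgl2b and htra1b are highest in the third.

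Smooth muscle genes were a matter of few wells. The actin acta2 had 20 UMIs in 4 stromal wells, 17 of them in 1 well, and tagln had 41 UMIs in 8. On 5-month plate 1 acta2 and tagln had 733 and 1272 CPM. The pericyte gene notch3 had, on 7-month plates 1 and 2 and 5-month plates 1 and 2, 92.5, 0, 0 and 38.5 CPM in the stromal wells, against 93.1, 138, 38.7 and 29.7 CPM in the others, from 4 stromal UMIs. Of the 10 mural genes in the tables, 3 reached 20 stromal UMIs and rgs5b was higher on each plate.

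The comparison of 7 with 5 months asked how the stromal wells differ between the adult ages, with UMIs summed over the wells of a plate and tested with edgeR's quasi-likelihood test over all genes that passed its expression filter. With Benjamini-Hochberg adjustment 1 of 318 genes passed the 0.05 threshold (0.314%), with 44 at an unadjusted p under 0.05 (13.8%), and DESeq2 also called 1, the same gene. Between the ages 139 of the 318 genes had plates that did not overlap (43.7%). The gene called, si:ch211-251b21.1, to which the tables give no function, had 5241 and 3077 CPM at 7 months, against 154 and 539 CPM at 5 months. It had 170 and 7 stromal UMIs at 7 months, the 7 on the 3-well plate, against 4 and 14 UMIs at 5 months. It averaged 4159 ± 1530.0 CPM at 7 months and 347 ± 272 CPM at 5 months (SD, n = 2), which edgeR fitted as a log2 change of 3.72 ± 0.49 SE (adjusted p 0.0146). In the other wells it had 803 and 1105 CPM at 7 months, against 336 and 437 CPM at 5 months. Leaving out 2 alternatives that kept the same wells and so repeated the fit, it was called in 10 of 14 that tested it, with edgeR or DESeq2 adjusted p from 1.13e-07 to 0.998. The fits without 7-month plate 1, without 5-month plate 1 and without 5-month plate 2 called 0 genes, and the fit without the 3-well plate called 8 of 384 (2.08%).

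The complement and other rule genes were not called in this test, and their levels in the wells depend on the rule that needs 4 of them. Clusterin had 5579.7 and 3516 CPM at 7 months, against 578 and 2465 CPM at 5 months, a log2 change of 1.71 ± 0.57 SE with an edgeR adjusted p of 0.309. In the other wells clu had 1158 and 515 CPM at 7 months, against 75.0 and 72.2 CPM at 5 months. The other wells hold few rule genes by choice, clu among them, so these levels are a description. Over all genes tested there, 138 of 1914 were called between the ages (7.21%). On 7-month plate 1, 9 of the 10 stromal wells with at least 5 clu UMIs lay in odd rows and odd columns, which held 58 of the 203 kept wells. Among the other wells of that plate with as many clu UMIs, 4 of 13 lay there. On 5-month plate 2, 2 of 6 such stromal wells did, where these positions held 50 of the 174 kept wells. The part of plate position in the clu level was not tested. The level of c6 was 2158 and 3077 CPM at 7 months, against 1118 and 1155 CPM at 5 months (log2 change 1.00 ± 0.33 SE, edgeR adjusted p 0.309), and that of c4 was 1973 and 1319 CPM at 7 months, against 848 and 924 CPM at 5 months (log2 change 1.03 ± 0.38 SE, edgeR adjusted p 0.312). The levels of ccl25b were 11992 and 5714 CPM at 7 months, against 17313 and 19178 CPM at 5 months (log2 change -0.93 ± 0.39 SE, edgeR adjusted p 0.352). The fit for mgp gave a log2 change of -2.37 ± 0.86 SE (edgeR adjusted p 0.312), with 0 UMIs on 7-month plate 2, where a 0 allows up to 1319 CPM. Of the 10 rule genes 0 were called, 5 had a log2 change above 0 and 5 below.

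No gene of the matrix lists was called between the ages in the edgeR test over the 71 wells, and the basement membrane genes col4a1 and col18a1a were called in some of its alternatives. Of the 10 genes of the collagen list tested, 0 were called, all 10 had a log2 change above 0 and 2 had separate plates. Their median was 0.63, beside 145 of 318 above 0, 139 of 318 with separate plates and a median of -0.04 over all genes tested. In the other wells the 8 of these 10 genes that were tested had a median of 1.81. Basement membrane col4a1 had 2620.3 and 879 CPM at 7 months, against 617 and 385 CPM at 5 months (log2 change 2.12 ± 0.48 SE), with an edgeR adjusted p of 0.16. Of 16 alternatives that tested col4a1, 3 called it, with edgeR adjusted p of 0.00325 without the 3-well plate, 0.0222 in wells with a c4 or c6 UMI and 0.0193 without odd-row odd-column wells, and over all 16 its adjusted p ran to 0.998. The gene col18a1a, whose 26 stromal UMIs all came from 7-month plate 1, 13 of them from 1 well, was called with a minimum total of 10 UMIs (edgeR adjusted p 0.0115). The chemokine cxcl12a had 2528 and 5275 CPM at 7 months, against 10295 and 10013 CPM at 5 months (log2 change -1.67 ± 0.44 SE), with an edgeR adjusted p of 0.224. The ccl25b-led wells, where cxcl12a was most often seen, were 11 of 29 and 2 of 3 stromal wells at 7 months. At 5 months they were 11 of 18 and 12 of 21, and the part of this make-up in the cxcl12a level was not tested. Of 17 alternatives 3 called cxcl12a, with edgeR adjusted p of 0.00351 without the 3-well plate, 0.00809 in wells with a c4 or c6 UMI and 0.0124 with a minimum total of 10 UMIs, and over all 17 its adjusted p ran to 0.998. The retinol carrier rbp4 was not called (log2 change 0.55 ± 0.33 SE, edgeR adjusted p 0.589).

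**Figure D5:**
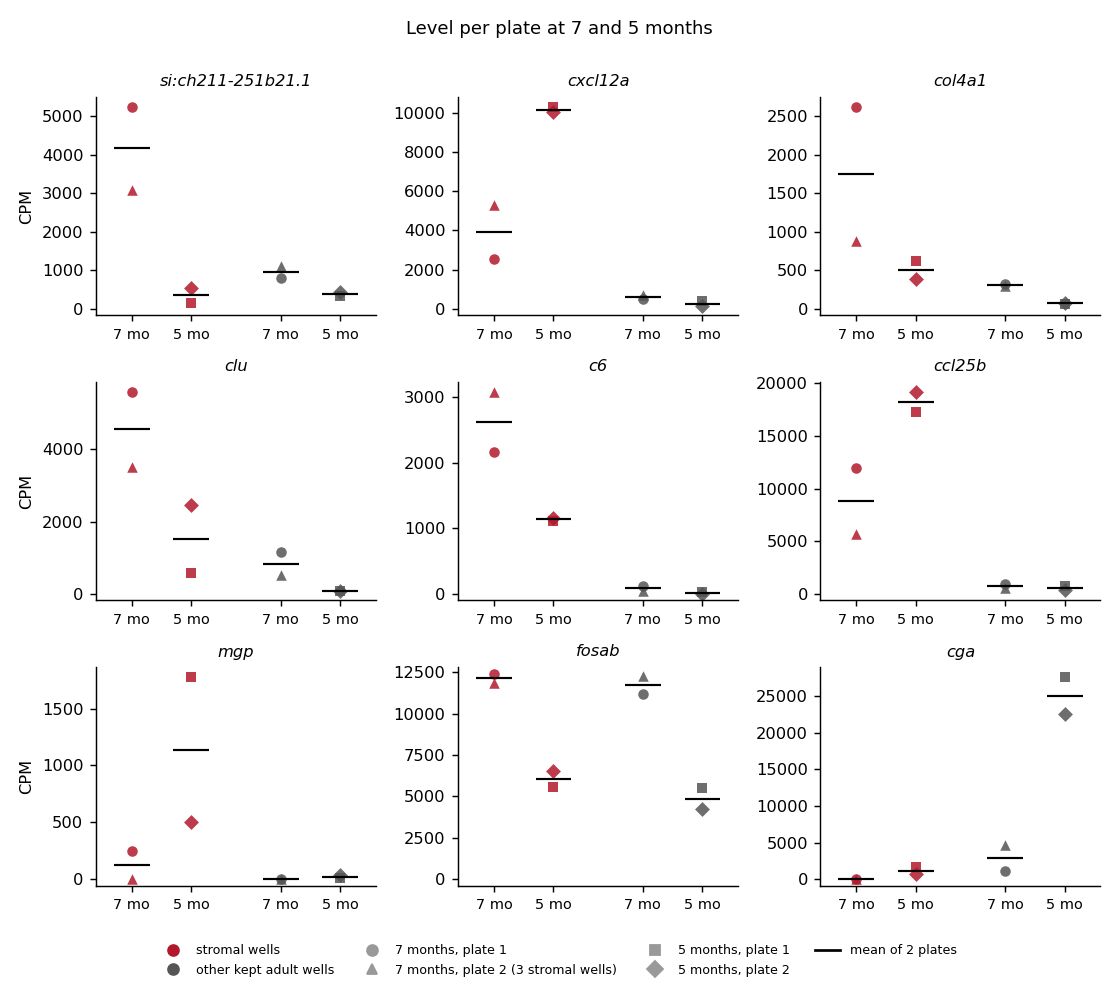
Level in CPM on each plate at 7 and 5 months in the stromal wells (red) and the other kept adult wells (grey) for 9 genes, with bars at the mean of 2 plates. In the stromal wells si:ch211-251b21.1 lies at 5241 and 3077 CPM at 7 months, against 154 and 539 CPM at 5 months, and cxcl12a at 2528 and 5275 CPM at 7 months, against 10295 and 10013 CPM at 5 months.

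The summed level of genes that dissociation can raise was higher on both 7-month plates. Summed over 24 immediate early and heat shock genes, the stromal wells had 46765 and 39560 CPM at 7 months, against 24678 and 31964 CPM at 5 months, and the other wells had 38904 and 42724 CPM, against 25246 and 20568 CPM. In the stromal wells 0 of 13 tested members were called, beside 1 of 318 over all genes tested (0.314%). Of the 13, 9 had plates that did not overlap, beside 139 of 318 over all genes tested (43.7%). The transcription factor gene fosab had 12393 and 11868 CPM at 7 months, against 5591 and 6508 CPM at 5 months (log2 change 1.00 ± 0.34 SE, edgeR adjusted p 0.309). The hormone genes cga and lhb, at 0 UMIs in the stromal wells at 7 months, had edgeR adjusted p of 0.125 and 0.185. Of 16 alternatives that tested cga, 5 called it lower, with edgeR adjusted p of 0.000712 to 0.0326 among the 5 and up to 0.998 over all 16, and 0 of 13 called lhb. In the other wells both were also lower at 7 months, with edgeR adjusted p of 0.0117 for cga and 5.72e-05 for lhb. The part of either list in the differences between the ages was not tested.

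Whether the stromal wells changed with age differently from the other wells was tested as an interaction over 8 sums, 2 per plate, with the plate as a block. The 2 sums of a plate share its library, and the other wells include wells just below the rule. By edgeR's adjusted p, 13 of 738 genes passed the 0.05 threshold (1.76%), 1 with a more positive (0.136%) and 12 with a more negative change in the stromal wells (1.63%), with 75 at an unadjusted p under 0.05 (10.2%), while DESeq2 called 1. The median difference over the 738 genes was -0.30. The complement list held 1 of them, si:dkey-8k3.2, and the rule genes 0 of 10. Counts of the rule genes made the split into stromal and other wells, so their 0 of 10 is a description. The chemokine cxcl12a had the smallest p. Its log2 ratio of stromal over other wells was 2.27 and 2.80 at 7 months, against 4.61 and 5.93 at 5 months, a difference of changes of -3.02 ± 0.54 SE with an edgeR adjusted p of 2.51e-05. The other wells had 483 and 715 CPM at 7 months, against 373 and 115 CPM at 5 months. The ccl25b-led wells were 11 of 29 and 2 of 3 stromal wells at 7 months, against 11 of 18 and 12 of 21 at 5 months. Within them cxcl12a stood at 6677 CPM on 7-month plate 1, against 11232 and 14952 CPM at 5 months. The part of the make-up of the stromal wells in the cxcl12a difference was not tested. For si:ch211-251b21.1 the ratios were 2.63 and 1.44 at 7 months, against -0.92 and 0.27 at 5 months, a difference of 2.52 ± 0.59 SE (edgeR adjusted p 0.00551).

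Of the matrix lists, 1 of 11 genes of the collagen list (col1a1b), 0 of 4 basement membrane genes and the 1 proteoglycan tested (dcn) were called, each with a more negative change. Type I collagen col1a1b had 6597 and 1758 CPM at 7 months, against 3355 and 5083 CPM at 5 months in the stromal wells and 2845 and 439 CPM at 7 months, against 523 and 217 CPM at 5 months in the others, a difference of -2.14 ± 0.55 SE (edgeR adjusted p 0.00936). Decorin had 925 and 1758 CPM at 7 months, against 1465 and 1309 CPM at 5 months in the stromal wells and 355 and 364 CPM at 7 months, against 91.9 and 93.4 CPM at 5 months in the others (-2.28 ± 0.66 SE, edgeR adjusted p 0.0423). The wells outside the rule with at least 5 type I collagen UMIs were 30 and 6 at 7 months and 16 and 10 at 5 months, and their part in these differences was not tested. The growth factor-binding gene igfbp5b had a difference of -2.47 ± 0.66 SE, the Wnt inhibitor sfrp1b of -3.25 ± 0.87 SE, the connective tissue growth factor gene ctgfa of -2.60 ± 0.77 SE and hsd11b2, which inactivates cortisol, of -2.82 ± 0.68 SE (edgeR adjusted p 0.0158, 0.0158, 0.0467 and 0.00551). The prostaglandin D synthase gene ptgdsb.2 differed by -2.73 ± 0.81 SE (edgeR adjusted p 0.0467). For crhbp, a binding protein of corticotropin-releasing hormone, the stromal wells had 0 and 0 UMIs at 7 months and 15 and 5 UMIs at 5 months, and the others had 18 and 2 UMIs at 7 months and 6 and 1 UMIs at 5 months, so its fitted difference depends on the prior count. The number of calls depended on the plates used. The edgeR test called 0 without 7-month plate 1, without 5-month plate 1 or without 5-month plate 2, and 16 of 1885 without the 3-well plate (0.849%).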

How the data were processed

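The files hold raw UMI counts per gene and well for 6 plates of 384 wells, as deposited by the authors. Per the submitters' processing notes, bcl2fastq 2.15.0.4, Seurat 3.1.5 and the build danRer10 were named, and the aligner and gene models are not given in the sources used here. The tables hold 31325 gene rows and 92 spike-in rows, which had 0 UMIs and were left out. Plates were grouped by age from their labels, and replicate numbers follow accession order. The stromal wells and gene lists were chosen with earlier results of these data known. Counts were summed per plate over the stromal wells and over the other kept wells. CPM scale these sums to the total UMIs of the same wells. Tests used edgeR 4.0.16 (quasi-likelihood, TMM, filterByExpr, Benjamini-Hochberg at 0.05) in R 4.3.3, checked on simulated data, and DESeq2 1.42.0 was an alternative. Standard errors are of the fitted log2 change. With 2 plates of 1 pool per age, p-values cover the spread between plates only. Since 1 UMI can be free RNA, shares of wells are given beside those of macrophage-gene wells and after thinning each well to 400 UMIs. Doublets were not called, since single cells were sorted into wells per the labels' protocols, and wells with 3 or more macrophage genes or at least 1% hormone UMIs were left out as an alternative. The text names all 10 rule genes, up to 25 genes outside the rule at least 4-fold higher on each plate by mean log2 ratio, the 5 lowest, up to 10 called genes in each direction per test, and list members as examples. Alternatives covered the gene rule, UMI minimum, scaling, filters, pseudocount, thinning and each plate left out. Of the alternatives, the stromal wells with a c4 or c6 UMI, the odd-row odd-column wells left out and the thinned reading of each rule gene were chosen after seeing the data.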

Additional observations from a re-analysis of the deposited data

Results flagged for a closer look

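For 13 genes the change between 7 and 5 months in the stromal wells differed from that in the other kept adult wells by edgeR's interaction test, and each is given as the log2 difference of changes. The values were -3.02 for cxcl12a, 2.52 for si:ch211-251b21.1, -3.71 for wu:fj16a03, -2.82 for hsd11b2 and -2.14 for col1a1b. They were -3.25 for sfrp1b, -2.47 for igfbp5b, -2.28 for dcn, -2.60 for ctgfa and -2.73 for ptgdsb.2. For 3 more genes a group of wells had no or few UMIs at one age, so that the fitted values of -11.4 for crhbp, -7.36 for si:ch211-106h4.12 and -5.43 for si:dkey-8k3.2 depend on the prior count. The stromal wells had 6 and 0 UMIs of si:ch211-106h4.12 at 7 months, against 16 and 2 at 5 months, and the other wells had 14 and 0 at 7 months, against 0 and 0 at 5 months. Leaving out 1 alternative that repeated the same fit, each of the 13 was called in 3 to 7 of 16 alternatives, some of which did not test every gene.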

How the results depend on the processing

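A minimum of 300 UMIs and the removal of wells over 30% mitochondrial UMIs, counted over rows named mt-, kept the same stromal wells. Rows named AC024175 were not part of that share. In the stromal wells AC024175.4 alone held 192053 and 263736 CPM at 7 months, against 239762 and 218585 CPM at 5 months. Of 399 recomputed log2 changes of single genes, 255 kept their direction and side of the threshold, 132 lost a call, 11 gained one and 1 turned round. That 1 was the difference of changes of igfbp5b, at 0.10 with wells thinned to 400 UMIs, and the cause was not tested. The 7 against 5 months test, with 1 gene called, gave 0 genes with 3 of the 10 rule genes, 2 with 5 of 10, 5 with a minimum total of 10 UMIs per gene, and 0 of the 41 genes left after thinning. Chosen after seeing the data, wells with a c4 or c6 UMI gave 7 and wells outside odd rows and odd columns 3. Leaving out each plate gave 0 to 8, with 12, 26 and 23 genes at an unadjusted edgeR p under 0.05 in the fits with 0, where a lone plate is assumed to vary like the other age. With a minimum of 1000 UMIs, 7-month plate 2 had no stromal well and was dropped from the fit. The interaction, with 13 genes called, gave 0 with 3 of 10 or 5 of 10 rule genes and 1 with DESeq2. It gave 21 with library size in place of TMM and 2 without mixed wells. Without the rows named mt- and AC024175 it gave 7, with the minimum total of 10 UMIs 0, and when thinned 0. It gave 8 with wells holding a c4 or c6 UMI, 3 without odd rows and odd columns, and 0 to 16 without each plate in turn. The 17 genes at least 4-fold higher became 33 with a minimum of 1000 UMIs, 9 when thinned, 7 with a pseudocount of 200 CPM, 30 against wells with no rule gene UMI, and 16 to 35 without each plate in turn. The 33 did not need 7-month plate 2, which had no stromal well at that minimum, and 35 genes passed with that plate alone left out. The 15 lower genes became 8 with 3 of 10 rule genes, 40 with a pseudocount of 20 CPM and 5 with one of 200 CPM. With 3 of 10 rule genes the mean share was 14.4% at 7 months and 13.2% at 5 months, the other order than with 4 of 10, and when thinned it was 3.18% at 7 months and 4.24% at 5 months. The 3 stromal wells of 7-month plate 2 limit what either test can show for genes at low counts. No paired analysis was possible because the replicate numbers follow accession order and pair no plates across ages.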

Other observations

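The stromal wells led by different rule genes also differed in genes that were named after their values were seen, and these are given as counts only. The hepcidin gene hamp, whose product controls iron release in mammals, had 24 UMIs in 5 of the 36 ccl25b-led wells and 0 in the other 35. The secreted Wnt antagonist sfrp5 had 19 UMIs in 6 of the ccl25b-led wells and 1 UMI in the others, and crhbp had 19 UMIs in 8 of them and 1 UMI in the others. In the 14 clu-led wells, 8 of which lay in odd rows and odd columns of 7-month plate 1, the matricellular gene thbs2b had 24 UMIs in 6 wells, against 5 UMIs in 4 of the remaining 57, and the heat shock gene hsp70.2 had 99 UMIs in 11 wells, against 74 UMIs in 18 of the remaining 57. In the 21 wells led by neither, ackr3b, a scavenger receptor for Cxcl12, had 27 UMIs in 8 wells, against 8 UMIs in 5 of the remaining 50.

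The 37 dpf plates held few wells of the same kind. Over all kept juvenile wells c6 was seen in 1 of 311 and 5 of 339 wells, c4 in 1 and 5 wells, and myoc in 0 and 0 wells, while ccl25b was seen in 92 and 102 wells.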
